A study of Mus musculus with 7 samples.

Results

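Gene expression was compared between 2 clonal lines of induced neural stem cells (iNSCs), mcBKSM clone 1 and mcBKSM clone 3, each represented by 1 RNA-seq library. Of 24354 gene symbols in the deposited table, the 9024 with at least 5 FPKM (a fragment count divided by transcript length and library size) in the higher clone were kept. The difference is clone 3 minus clone 1 on the log2(FPKM + 1) scale throughout, so a positive value means a higher level in clone 3, and a fold means a fold on that scale. With 1 library a clone no test was made, no standard error exists, and differences between clones cannot be told apart from differences between libraries. A further 6310 symbols were above 0 but under 5 FPKM in both clones, and 9020 were listed at 0 in both.

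An iNSC is a fibroblast converted by virally delivered transcription factors and neural stem cell medium. It grows and expresses genes like a neural stem cell. A clonal line descends from a single converted cell, so its cells share one set of viral insertions and any genetic or epigenetic state that was fixed when the clone was founded. Lines made by one protocol can therefore differ in imprinted genes, in positional identity genes, in the amount of each chromosome and in surface molecules such as MHC class I.

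Both clones were labelled as derived from embryonic fibroblasts taken at embryonic day 13.5, of strain C57BL/6-Pou5f1 x 129X1/SvJ and genotype Oct4-CreER x Rosa26-loxSTOPlox-EYFP. The fibroblast (MEF) library and the pOKSM and pBKSM iNSC libraries carry the same strain, age and genotype labels. The DTA iNSC line has the genotype Oct4-CreER x Rosa26-loxSTOPlox-DTA and a strain given as unknown, and the control neural stem cells (cNSC) are brain cells of OG2/ROSA26 embryos, both also of embryonic day 13.5. The prefixes mc and p are read as monocistronic vectors, with 1 factor each, and polycistronic vectors, with several factors on 1 transcript. B, K, S and M are read as Brn4 (gene Pou3f4), Klf4, Sox2 and Myc, and O as Oct4 (gene Pou5f1). Infection was with lentivirus or retrovirus, and which of the 2 made each clone is not given in the labels. Each library was made from RNA pooled over 2 to 3 biological replicates, so the spread within a clone cannot be seen. The steps between low FPKM values gave approximate depths of 13.7 in clone 1 and 12.6 in clone 3, in units of 1e6 fragments. At these depths 3 fragments on a 2 kb transcript correspond to 0.11 and 0.119 FPKM. Lower values are called at or under the detection floor, which covers counting error only. A transcript longer than 2 kb holds more fragments at the same FPKM, so for long transcripts this floor is only a convention.

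The labelled cell type was checked against its markers. Nes, an intermediate filament gene of neural stem cells, was 145 FPKM in clone 1 and 132 in clone 3, and Pax6, a neural progenitor transcription factor, was 5.33 and 6.798. The fibroblast collagen gene Col1a1 was 0.962 and 0.228 FPKM in the clones against 439.8 in MEF. The pluripotency gene Nanog was 0.197 and 0.253 FPKM. Of 32 neural stem cell markers 27 were kept, while none of 16 pluripotency markers and none of 17 muscle and mesoderm markers was kept. Of 15 endothelial and blood markers 1 was kept, the lysosomal gene Cd68, at 9.68 and 9.49 FPKM. Of 33 fibroblast markers 13 were kept, among them Fstl1 (87.1 and 71.7 FPKM, 69.5 in MEF) and Twist1 (16.9 and 16.7, 29.4 in MEF). Of 24 neuronal markers 9 were kept, among them Syt1 (43.0 and 46.4 FPKM). The neural stem cell markers Sox3 (0.177 and 0.0779 FPKM, 60.1 in cNSC) and Nr2e1 (0.0438 and 0.0241, 9.28 in cNSC) were nearly absent. Not all kept neural stem cell markers part the clones from fibroblasts. Sox2 is a factor of the line label, and Vim (2239 FPKM in MEF) and Fgfr1 (113.5) are high in MEF too. Nes (0.103 in MEF) and Pax6 (listed at 0 in MEF) are not. Both clones thus carry most markers of their label, and no defining marker set of another cell type was present as a whole in either.

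The factor genes were examined as a check of the line label. Sox2 was 342 FPKM in clone 1 and 390 in clone 3, and Myc was 450 and 485. Klf4 was 16.6 FPKM in clone 1 and 5.91 in clone 3, a difference of -1.35. It was 5.199 in pOKSM, 6.93 in the DTA line, 11.7 in pBKSM, 4.08 in cNSC and 21.8 in MEF, so clone 1 stood above the other iNSC libraries and below the fibroblasts. Pou3f4 was listed at 0 in both clones, so these libraries do not show the factor B of the label. Pou5f1 was 0.398 FPKM in clone 1 and 0.187 in clone 3. FPKM per gene does not part vector transcripts from endogenous ones, and a vector transcript that lacks the annotated untranslated regions counts only in part.

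The clones were close for most genes. The median difference over the 9024 kept genes was -0.004, the quartiles were -0.165 and 0.145, and the central 90 in 100 genes lay between -0.46 and 0.405. The 2-fold bound was passed by 114 genes (1.26 percent of kept genes), of which 32 (0.355 percent) were higher in clone 3 and 82 (0.909 percent) in clone 1. The 1.5-fold bound was passed by 416 genes (4.61 percent), of which 164 (1.82 percent) were higher in clone 3 and 252 (2.79 percent) in clone 1. More genes were thus higher in clone 1 at both bounds. These shares over all kept genes are the background for the counts in gene lists below.

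**Figure D1:**
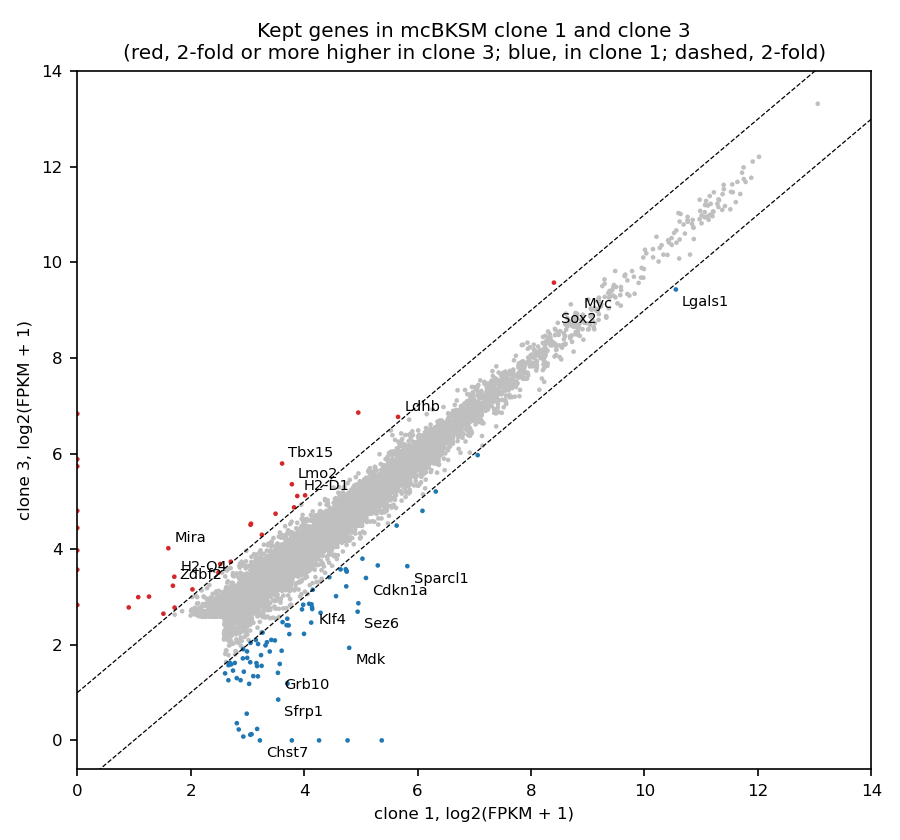
Level of each of the 9024 kept genes in clone 1 (x axis) and clone 3 (y axis), both as log2(FPKM + 1), 1 point a gene. Dashed lines mark 2-fold; 32 red genes are 2-fold or more higher in clone 3 and 82 blue genes in clone 1, and most of them lie in the lower left, at low levels.

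Small RNA genes made up 14 of the 114 genes, although only 23 of the kept genes were of this kind. Of these 14, 10 were higher in clone 3, 4 were higher in clone 1, and 12 were listed at 0 in one clone. Snora5c, a small nucleolar RNA gene, was listed at 0 in clone 1 and at 113 FPKM in clone 3, and Snora28 was 40.3 FPKM in clone 1 and listed at 0 in clone 3. Genes this short take a high FPKM from few fragments, so they were set apart. Of the 100 other genes 22 were higher in clone 3 and 78 in clone 1, and 72 had under 20 FPKM in the higher clone.

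The spread depended on the level of a gene. Among 246 genes with a mean under 5 FPKM, kept because the higher clone reached 5, the median absolute difference was 0.418. Of these 13.8% passed 2-fold, 28 higher in clone 1 and 6 in clone 3. Among 2013 genes with a mean of 5 to 10 FPKM the median absolute difference was 0.179, and 1.69% passed 2-fold. Among 2545 genes between 20 and 50 FPKM it was 0.141, and 0.55% passed. Of 678 genes between 100 and 500 FPKM none passed. The 2 genes that passed at a mean of 500 FPKM or more were Lgals1, encoding the secreted lectin galectin-1, at 1502 FPKM in clone 1 and 692 in clone 3, and the small nucleolar RNA gene Snord16a, at 338 and 763. Both were named for their level, after their values were seen. At the bound itself, Tmem180 (1.03) and A230050P20Rik (1.02) lay just inside and Nr5a2 (0.99) and 1190002N15Rik (0.98) just outside among genes higher in clone 3. In the other direction Astn2 and Sfrp4 (both -1.01) lay just inside, and Ifi27 and Tgfbi (both -1.0 when rounded) just outside.

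The genes with the largest differences in favour of clone 1 included several that were near the floor in clone 3. Chst7, a sulfotransferase gene for glycosaminoglycans (chromosome X, 20058963 to 20099991, build mm10), was 8.31 FPKM in clone 1 and listed at 0 in clone 3. It was 18.1 FPKM in pOKSM, 62.8 in pBKSM, 61.3 in the DTA line, 21.97 in cNSC and 0.997 in MEF, so clone 3 was the one neural library in which it was listed at 0. Dab1, an adaptor of the Reelin pathway in neuronal migration (chromosome 4, 103619500 to 104744844), was 6.61 FPKM in clone 1 and 0.0572 in clone 3, at the floor. It was 3.302 FPKM in pOKSM, 16.9 in pBKSM, 17.6 in the DTA line and 10.1 in cNSC. Clone 3 was again the low library among the neural ones.

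For other genes it was clone 1 that stood apart from the rest. Mdk, encoding the heparin-binding growth factor midkine (chromosome 2, 91929805 to 91932297), was 26.8 FPKM in clone 1 and 2.83 in clone 3, a difference of -2.86. It was between 0.199 FPKM (MEF) and 0.909 (pOKSM) in the other 5 libraries. Sfrp1, a secreted Wnt antagonist (chromosome 8, 23411383 to 23449632), was 10.7 FPKM in clone 1 and 0.808 in clone 3, a difference of -2.69. It was 7.70 in MEF and between 0.174 (cNSC) and 2.46 (pOKSM) in the others. Mpg, a DNA glycosylase of base excision repair (chromosome 11, 32226505 to 32232702), was 7.42 FPKM in clone 1 and 0.0938 in clone 3, at the floor. Its other values ran from 0.0388 (cNSC) to 2.49 FPKM (DTA line). F2rl2, a protease-activated receptor gene, was 12.01 and 1.29 FPKM, and Sdk2, a synaptic adhesion molecule gene, was 6.19 and 0.172 FPKM.

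Anxa1, encoding the membrane-binding protein annexin A1 and abundant in fibroblasts (chromosome 19, 20373434 to 20390671), was 8.01 FPKM in clone 1 and 0.181 in clone 3. It was 634 FPKM in MEF, 20.9 in cNSC, 0.715 in pOKSM, 9.93 in pBKSM and 4.11 in the DTA line, so clone 3 and pOKSM were the low libraries. C1qtnf6, a secreted C1q family gene, was 12.04 and 1.28 FPKM. Sez6, a neuronal membrane protein gene, was 29.8 and 5.47 FPKM. Slc6a11, a GABA transporter gene, was 6.93 and 0.473 FPKM, and Cxx1c was 6.03 and 0.284. These were the 12 largest differences toward clone 1 under the naming rule.

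Fewer genes were higher in clone 3, and their levels in clone 1 were mostly above the floor. Tbx15, a T-box transcription factor of limb and skeletal mesenchyme (chromosome 3, 99240348 to 99354260), was 11.2 FPKM in clone 1 and 54.5 in clone 3, a difference of 2.18. It was 39.5 in pOKSM, 15.4 in pBKSM, 12.2 in the DTA line, 12.7 in MEF and 0.0898 in cNSC, so clone 3 and pOKSM were the high libraries. Lmo2, a LIM-domain adaptor of haematopoietic and vascular transcription complexes (chromosome 2, 103957903 to 103981878), was 12.8 and 40.1 FPKM, a difference of 1.58. It was 15.6 in pOKSM, listed at 0 in MEF, and under 1 FPKM in pBKSM (0.447), the DTA line (0.347) and cNSC (0.815). Lmo2 was therefore high in both clones and in pOKSM, and highest in clone 3.

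Mira, a non-coding RNA gene inside the HoxA cluster (chromosome 6, 52214491 to 52215288), was 2.04 FPKM in clone 1 and 15.2 in clone 3, a difference of 2.42. Aplp1, an amyloid precursor-like membrane protein gene, was 0.875 and 5.88 FPKM, and Stxbp2, encoding a syntaxin-binding protein of exocytosis, was 1.40 and 7.05. Ppp2r2b, a regulatory subunit of protein phosphatase PP2A, was 7.31 and 21.8 FPKM. Tuba4a, an alpha tubulin gene, was 4.74 and 11.9 FPKM. Col3a1, a fibrillar collagen gene (219 FPKM in MEF), was 10.3 and 25.8 FPKM, and 20.2 in pOKSM against 0.271 in pBKSM. Tgfbr2, a TGF-beta receptor gene (chromosome 9, 116087695 to 116175363), was 7.36 and 22.2 FPKM, a difference of 1.47. The DTA line (7.29 FPKM) was level with clone 1 for Tgfbr2, while pOKSM (20.1) was close to clone 3.

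For the 100 genes 2-fold apart that were not small RNA genes, the place of the other libraries beside the clones was counted. On the log2(FPKM + 1) scale pOKSM lay on the clone 3 side of the midpoint between the clones for 54.0% of the 100 genes, against 56.8% of all kept genes. The DTA line lay on the clone 1 side for 64.0% of them, against 50.2% of all kept genes. Of the 22 genes higher in clone 3, cNSC lay on the clone 1 side for 19, pBKSM for 17, the DTA line for 16, MEF for 15 and pOKSM for 10. Over all kept genes these libraries lay on the clone 1 side for 51.3%, 52.2%, 50.2%, 54.3% and 43.2% in the same order. The 100 genes were chosen by the difference between the clones, and the 22 for being high in clone 3. Nothing is therefore read from these counts. The other libraries are 1 each, so these counts carry no error.

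Genes of MHC class I antigen presentation were higher in clone 3. MHC class I molecules consist of a polymorphic heavy chain (H2-K, H2-D and related Q and T region genes in mouse) and the light chain beta-2-microglobulin, and display peptides at the cell surface after loading in the endoplasmic reticulum. Transcription of heavy chain genes is known to draw on an upstream block with a kappa-B element, an interferon-stimulated element and the X and Y boxes that the NLRC5 complex uses. The promoters of the 4 heavy chain genes 1.5-fold or more apart are shown because these genes differ together. Each line gives the 250 bases before the annotated start, 5' to 3' in the direction of transcription, from RefSeq on GRCm38.p6 (mm10). They lie at chr17:34000348-34000597 on the minus strand, chr17:35262844-35263093 on the plus strand, chr17:35379367-35379616 on the plus strand and chr17:36032702-36032951 on the minus strand. Capitals mark matches, on either strand, to GGGGATTCC (part of a kappa-B site), AAGTGAAA (the interferon-stimulated element, read as TTTCACTT on the other strand) and TGACG (the letters at the core of the X2 box, which also occur elsewhere).
H2-K1: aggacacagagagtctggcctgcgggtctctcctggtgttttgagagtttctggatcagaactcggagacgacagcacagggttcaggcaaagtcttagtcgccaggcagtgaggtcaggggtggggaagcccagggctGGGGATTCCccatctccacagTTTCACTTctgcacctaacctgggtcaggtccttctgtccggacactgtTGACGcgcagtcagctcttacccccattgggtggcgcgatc
H2-D1: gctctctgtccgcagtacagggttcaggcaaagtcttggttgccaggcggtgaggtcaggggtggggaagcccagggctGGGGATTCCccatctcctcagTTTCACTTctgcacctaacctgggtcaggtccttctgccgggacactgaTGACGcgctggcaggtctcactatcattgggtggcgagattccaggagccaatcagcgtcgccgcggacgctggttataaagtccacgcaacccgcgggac
H2-Q4: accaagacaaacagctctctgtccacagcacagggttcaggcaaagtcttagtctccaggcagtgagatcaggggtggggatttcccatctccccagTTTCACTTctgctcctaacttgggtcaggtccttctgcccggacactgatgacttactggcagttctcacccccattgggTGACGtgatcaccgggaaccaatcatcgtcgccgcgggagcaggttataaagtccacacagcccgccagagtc
H2-T23: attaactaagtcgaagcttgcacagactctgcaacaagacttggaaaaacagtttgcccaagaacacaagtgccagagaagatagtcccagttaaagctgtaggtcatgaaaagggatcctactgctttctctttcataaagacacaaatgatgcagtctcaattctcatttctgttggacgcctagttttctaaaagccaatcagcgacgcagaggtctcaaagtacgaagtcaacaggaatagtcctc

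H2-K1 and H2-D1 held all 3 motifs, in the same order. H2-Q4 held the interferon-stimulated element and the letters TGACG but not this exact kappa-B sequence, and H2-T23 held none of the 3 in this window. Only exact letters were searched. At the place of the kappa-B match H2-Q4 reads ggggatttc, so a missing match there does not show that a kappa-B site is absent. TGACG began 49 bases after the start of the interferon-stimulated match in both H2-K1 and H2-D1, but 80 bases after it in H2-Q4, so the match in H2-Q4 lies at another place and is not described as the X2 box. H2-K1 has more than 1 listed start in RefSeq, and the first was used. Its window lies inside the H2-K1 gene span given below, so its end is not the outermost start of that gene. Distances to the start are therefore not compared between the promoters. AAGTGAAA occurred in 1.44% of 27025 promoters of this length and in 0.866% of the 7041 promoters of kept genes. GGGGATTCC occurred in 0.218% and 0.256%, and TGACG in 17.9% and 30.3%. A match describes letters and is not evidence of a factor bound there.

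H2-K1 (chromosome 17, 33996012 to 34000619) was 45.2 FPKM in clone 1 and 88.6 in clone 3, a difference of 0.96. It was 106 FPKM in MEF, 61.0 in pOKSM, 25.5 in cNSC, 7.30 in pBKSM and 5.03 in the DTA line, so both clones and pOKSM stood above the other neural libraries. H2-D1 (35263094 to 35267497) was 13.7 and 33.6 FPKM, a difference of 1.23, with 36.1 in MEF, 19.4 in pOKSM, 9.36 in cNSC, 6.94 in the DTA line and 4.80 in pBKSM. For both genes clone 3 was the highest neural library and clone 1 lay below pOKSM.

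H2-Q4 (35379617 to 35384674), a Q region class I gene, was 2.27 FPKM in clone 1 and 9.74 in clone 3, a difference of 1.71, and between 4.99 (pBKSM) and 6.47 FPKM in the other neural libraries. H2-T23 (36029977 to 36032701), which encodes the non-classical molecule Qa-1, was 2.29 and 5.86 FPKM, a difference of 1.06. Clone 1 was the lowest of the 7 libraries for both genes. The light chain gene B2m was 207 and 247 FPKM, and the peptide loading gene Tapbp was 8.89 and 11.5. Of 18 genes in the antigen presentation list 7 were kept, all 7 were higher in clone 3, 4 passed 1.5-fold and 3 passed 2-fold, and their median was 0.957 against -0.004 for all kept genes.

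Of the 11 members under 5 FPKM in both clones, 8 were higher in clone 3, 2 in clone 1 and 1 was equal, most of them near the floor. The peptide transporter genes Tap1 and Tap2 were 0.217 and 0.0867 FPKM in clone 1 and 1.75 and 1.05 in clone 3. In the DTA line they were 8.23 and 7.27 FPKM, and in MEF 8.20 and 21.2. Clone 1 was lowest for both, with Tap2 under the floor. Nlrc5, the transactivator of class I genes, was 0.0297 and 0.098 FPKM, under the floor set for a 2 kb transcript in both clones. The heavy chain genes are near copies of each other in places: of the 50-base words of H2-D1 transcripts 5.4% also occur in H2-K1, and of H2-Q4 2.6% occur in H2-D1, so some of their fragments could be assigned to either.

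The interferon response list was mixed. Of its 7 kept members 6 were higher in clone 1 and 3 passed 1.5-fold in that direction, with a median of -0.187. Ifi27, an interferon-induced mitochondrial protein gene, was 16.8 FPKM in clone 1 and 7.89 in clone 3, a difference of -1.0. Ifitm1, an antiviral membrane protein gene, was 5.15 and 2.68, and Ifi35 was 8.30 and 5.15. Ifi35 lies on chromosome 11, and its difference was -0.60 as measured and -0.41 centred on its chromosome. Of the 23 members under 5 FPKM in both clones, 15 were higher in clone 3, 6 were higher in clone 1 and 2 were equal. Oasl2, an oligoadenylate synthetase-like gene, was 0.429 FPKM in clone 1 and 1.22 in clone 3, and the ubiquitin-like gene Isg15 was 2.99 and 4.04. The chemokine and cytokine list had 9 kept members, 7 of them higher in clone 1 and 3 past 2-fold. These were the neutrophil chemokine genes Cxcl5 (16.4 and 4.52 FPKM) and Cxcl1 (6.65 and 1.71) and the secreted phosphoprotein gene Spp1 (7.93 and 2.07). Cxcl10, an interferon-induced chemokine gene, was 45.3 and 57.2 FPKM.

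**Figure D2:**
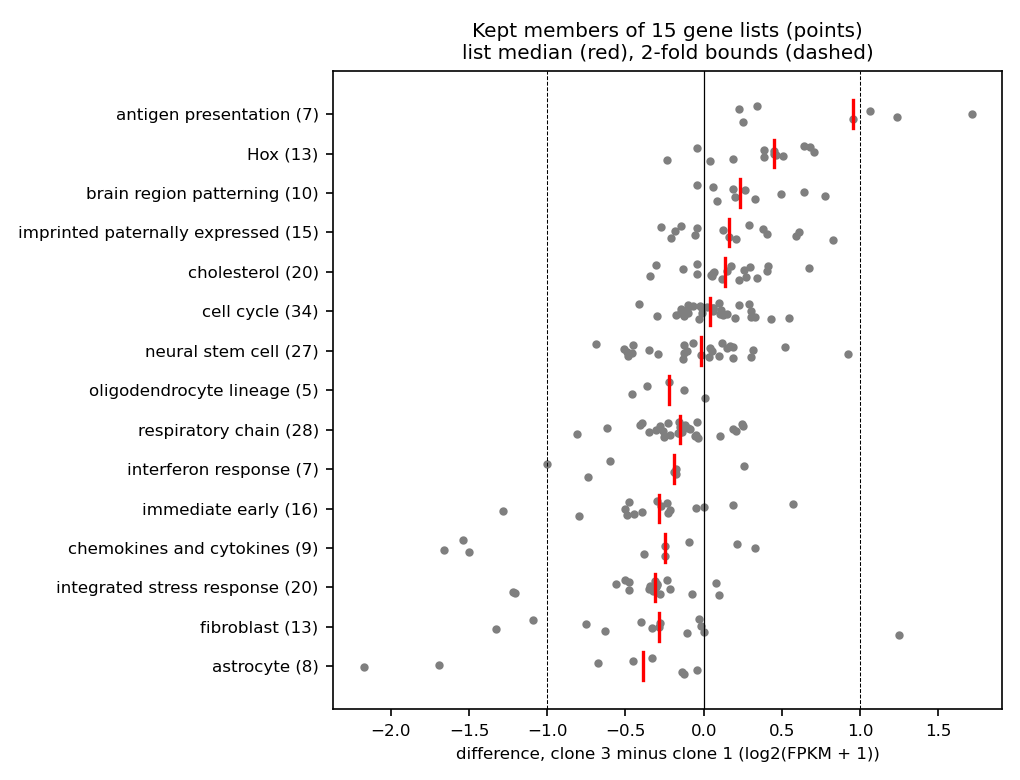
Difference of each kept member (points) in 15 gene lists, with the number of kept members in brackets, the list median in red and the 2-fold bounds dashed; the x axis is clone 3 minus clone 1 in log2(FPKM + 1). Antigen presentation has the highest median (0.957) and astrocyte markers the lowest (-0.388) of those drawn.

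Kept astrocyte markers were lower in clone 3, some of them only slightly. All 8 kept members of 16 were higher in clone 1, 3 past 1.5-fold and 2 past 2-fold, with a median of -0.388. Over all kept genes 2.79% were 1.5-fold and 0.909% were 2-fold higher in clone 1. Aldoc (105.5 and 102.3 FPKM), Slc1a3 (32.3 and 29.5) and Gja1 (54.7 and 49.7) were nearly level. Sparcl1, a secreted matrix protein of astrocytes, was 55.5 FPKM in clone 1 and 11.5 in clone 3, a difference of -2.17. It was 79.5 FPKM in pOKSM, 198 in pBKSM, 151 in the DTA line, 10.5 in cNSC and 1.99 in MEF, so clone 3 was the lowest iNSC library and level with cNSC. Mlc1, an astrocyte membrane protein gene, was 8.51 and 1.95 FPKM, against 54.0 to 195 in the other neural libraries. Mlc1 lies on chromosome 15, and its difference was -1.69 as measured and -1.35 centred on its chromosome. The lipid carrier gene Apoe was 56.6 and 34.97. Gfap and Aqp4, which define mature astrocytes, were under the floor in both clones. Summed over all 16 markers the level was 467 FPKM in clone 1 and 351 in clone 3, against 583 in pOKSM and 1755 in pBKSM, 1831 in the DTA line and 2121 in cNSC. In bulk RNA, fewer cells of a type and less RNA per cell cannot be told apart.

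The neural stem cell list itself was balanced. Of 27 kept members 13 were higher in clone 3 and 14 in clone 1, with 1 past 1.5-fold each way and a median of -0.017. Hes5, a Notch target that maintains progenitors, was 4.02 FPKM in clone 1 and 8.51 in clone 3, a difference of 0.92. Hopx, a homeodomain gene of radial glia, was 12.2 and 7.19, a difference of -0.69. Among 12 kept Notch pathway genes, Mfng, a glycosyltransferase that modifies Notch receptors, was 22.6 FPKM in clone 1 and 7.10 in clone 3. The receptor gene Notch1 was 21.4 and 14.7, and the ligand gene Jag1 was 7.21 and 4.48. The Notch list had 7 members higher in clone 3 and 5 in clone 1, with a median of 0.15.

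Among other lineages, 4 of 5 kept oligodendrocyte lineage genes were higher in clone 1 (median -0.22), led by Olig1 (109.8 and 79.7 FPKM), and none passed 1.5-fold. Neuronal genes had 9 kept members, 5 higher in clone 3 and 4 in clone 1 (median 0.108). Gap43, a growth cone protein gene, was 25.6 and 10.97 FPKM, while the neuronal tubulin gene Tubb3 was 12.8 and 19.5. Both kept neural crest and Schwann genes are broadly expressed: the myelin protein gene Pmp22 was 7.17 and 1.27 FPKM and the transcription factor gene Ets1 was 33.0 and 37.5 (median -0.833 over the 2).

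Of 13 kept fibroblast list members 11 were higher in clone 1 (median -0.288), 4 past 1.5-fold, against 1 past 1.5-fold in clone 3. The calcium-binding protein gene S100a6 was 8.97 and 2.97 FPKM, Cd34 was 5.35 and 1.98, and the mesenchymal transcription factor gene Prrx1 was 7.27 and 3.92. Col3a1, described above, was the member past 1.5-fold in clone 3. The defining collagen gene Col1a2 was at 0.0135 FPKM in clone 1 and listed at 0 in clone 3, and Dcn was 0.0413 and listed at 0. Summed over all 33 markers the level was 616 FPKM in clone 1, 502 in clone 3 and 9777 in MEF. The part of remaining fibroblast RNA in other differences was not tested. Among 23 kept matrix and basement membrane genes 15 were higher in clone 1 (median -0.186), led by the nidogen gene Nid2 (6.57 and 2.29 FPKM). MEF and cNSC served as references. Of the genes 4-fold higher in MEF (6.48 percent of 9972 compared), 281 were kept here. Of these 9 were 2-fold higher in clone 3 and 21 in clone 1, or 3.2% and 7.47%. Of the genes 4-fold higher in cNSC (7.55 percent), 467 were kept, 1 was 2-fold higher in clone 3 and 23 in clone 1, or 0.21% and 4.93%. Over all kept genes the shares 2-fold higher were 0.355% in clone 3 and 0.909% in clone 1.

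Positional identity genes were mostly higher in clone 3. Hox genes record position along the body axis, and 13 of 39 were kept, of which 11 were higher in clone 3 and 3 passed 1.5-fold, with a median of 0.447. Hoxd13, the most distal gene of its cluster, was 11.5 FPKM in clone 1 and 18.6 in clone 3, and 15.5 in pOKSM against 0.101 or less in the 4 other libraries. Hoxd10 was 4.23 and 7.38, and Hoxd3 was 3.02 and 5.56. Of 10 kept brain patterning genes 9 were higher in clone 3 (median 0.234). Dlx1, a forebrain interneuron homeobox gene, was 10.9 and 19.4 FPKM. It was 20.27 in MEF and 0.257 in cNSC, so in this series it does not separate neural cells from fibroblasts. Zic1, a dorsal neural zinc finger gene, was 9.70 and 15.7, listed at 0 in MEF and at 22.25 in cNSC. Zic1 lies on chromosome 9, and centred on the median of its chromosome its difference was 0.33.

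Imprinted genes, which are expressed from one parental allele, differed at single loci. Grb10, a signalling adaptor gene expressed from the maternal allele in most tissues (chromosome 11, 11930499 to 12037428), was 10.6 FPKM in clone 1 and 1.67 in clone 3, a difference of -2.12. It was 6.66 in MEF, 3.00 in pOKSM and under 1 FPKM in cNSC (0.0133), pBKSM (0.0562) and the DTA line (0.496). Zdbf2, expressed from the paternal allele (chromosome 1, 63200358 to 63314576), was 2.22 and 8.43 FPKM, 8.93 in pOKSM, and listed at 0 or under 0.01 FPKM in the other libraries. Of 15 kept paternally expressed genes 9 were higher in clone 3 (median 0.164), 3 past 1.5-fold, led by Peg10 (46.1 and 82.6 FPKM). The 3 were Peg10 and Nap1l5, both on chromosome 6, and Snrpn, at 0.828, 0.609 and 0.589 as measured. Centred on their chromosomes they were 0.684, 0.465 and 0.554, so only Peg10 stayed past 1.5-fold. Of 11 kept maternally expressed genes 5 were higher in clone 3 and 6 in clone 1 (median -0.069).

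Stress and early response lists leaned toward clone 1 with few members past 1.5-fold. Of 20 kept genes of the integrated stress response, the ATF4 programme that answers amino acid shortage and other stresses, 18 were higher in clone 1 (median -0.308) and 2 passed 1.5-fold. The pseudokinase gene Trib3 was 14.6 FPKM in clone 1 and 5.69 in clone 3, and the transcription factor gene Atf5 was 25.9 and 10.7. These were the 2 past the bound, and both also passed 2-fold. Of 16 kept immediate early genes 13 were higher in clone 1 (median -0.285) and 2 passed 1.5-fold. Egr1, a zinc finger gene induced by growth signals, was 66.9 and 26.9 FPKM, and Fos was 44.1 and 24.98. The unfolded protein and heat shock list was near balance, with 8 of 20 kept genes higher in clone 3 and 12 in clone 1 (median -0.075). Its 3 members past 1.5-fold were higher in clone 1, among them the heat shock gene Hspb1 (10.8 and 5.75) and the haem oxygenase gene Hmox1 (35.9 and 23.01).

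Cell cycle genes were close. None of 34 kept members passed 1.5-fold, 18 were higher in clone 3 and 16 in clone 1, and the median was 0.038. Mki67, a marker of cycling cells, was 28.2 FPKM in clone 1 and 38.4 in clone 3. Cdkn1a, encoding the CDK inhibitor p21, was 33.1 FPKM in clone 1 and 9.55 in clone 3, a difference of -1.69. It was 65.3 in pOKSM, 80.1 in MEF, 178 in cNSC, 274 in pBKSM and 275 in the DTA line, so clone 3 was the lowest of the 7 libraries and clone 1 next. Of 21 kept CDK inhibitor and p53 target genes 13 were higher in clone 1 (median -0.154), and Cdkn1a was the member past 1.5-fold.

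Metabolic lists had medians close to 0. Of 25 kept hypoxia and glycolysis genes 14 were higher in clone 3 (median 0.063). The lactate dehydrogenase gene Ldhb was 49.4 FPKM in clone 1 and 108 in clone 3, and the glycolytic enzyme gene Eno1 was 299.8 and 180.3. Of 20 kept cholesterol synthesis genes 15 were higher in clone 3 (median 0.134), led by Sc5d (13.7 and 22.5). Of 28 respiratory chain genes 23 were higher in clone 1 (median -0.154). The complex I subunit gene Ndufb9 was 283 and 161 FPKM, and the complex III subunit gene Uqcrq was 429.9 and 280.0. Ndufb9 lies on chromosome 15 and Uqcrq on chromosome 11, which are described below. All 4 kept replication-dependent histone genes were higher in clone 1 (median -0.466), led by Hist1h4i (57.3 and 35.8).

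Signalling lists were near balance. TGF-beta and BMP genes had 8 of 13 kept members higher in clone 3 (median 0.083). Id1, a target of BMP signalling, was 24.0 FPKM in clone 1 and 10.9 in clone 3, opposite in direction to Tgfbr2. Wnt genes had 9 of 14 higher in clone 3 (median 0.126), with the receptor gene Lgr4 at 6.25 and 11.6 FPKM. Of 16 kept FGF and EGF signalling genes 11 were higher in clone 3 and 5 in clone 1 (median 0.08). Of 7 kept Hedgehog genes 5 were higher in clone 3 and 2 in clone 1 (median 0.102). None in either list passed 1.5-fold. Higher in clone 1 were the receptor gene Fgfr2 (15.4 and 10.9 FPKM) and Ptch1, receptor and target of Hedgehog (26.1 and 19.2). Gas1, of the Hedgehog list, was higher in clone 3 (52.1 and 70.5). The reprogramming factor list had a median of 0.109 over its 3 kept genes.

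Differences were shared by many genes of a few chromosomes. On chromosome 9, 89.0% of 490 kept genes were higher in clone 3, with a median of 0.312 and quartiles of 0.161 and 0.444. On chromosome 15, 6.2% of 357 genes were higher in clone 3, with a median of -0.339 and quartiles of -0.469 and -0.221. Chromosome 18 (214 genes, median -0.191) and chromosome 11 (803 genes, median -0.185) were lower in clone 3, and chromosome 6 (399 genes, median 0.145) was higher. The medians of the 15 other chromosomes, leaving out the Y chromosome with 3 kept genes, lay between -0.063 and 0.06.

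**Figure D3:**
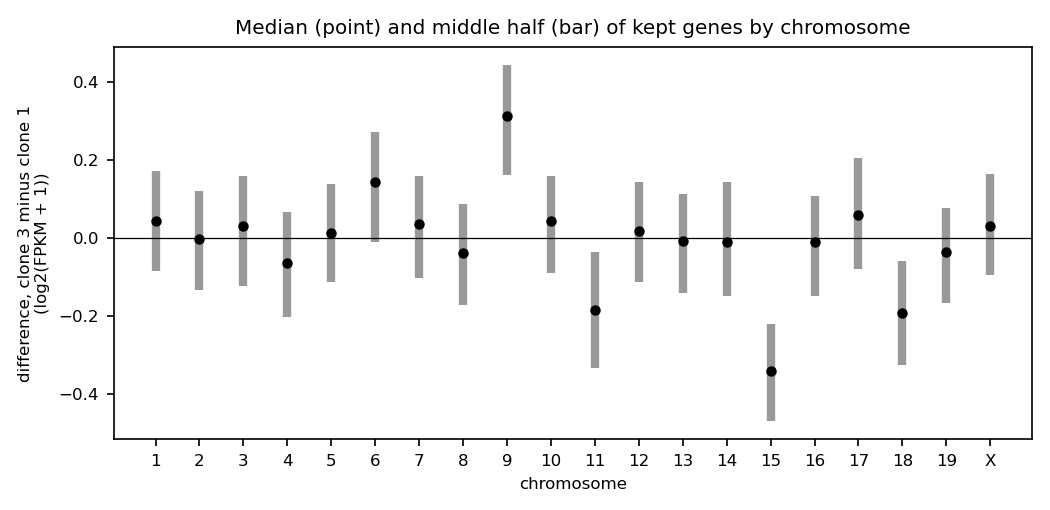
Median difference (point) and range between the quartiles (bar) of kept genes on each chromosome, in log2(FPKM + 1), clone 3 minus clone 1. Chromosome 9 lies highest (0.312) and chromosome 15 lowest (-0.339), and their bars do not reach 0; the bars of 11 and 18 also stay below 0.

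The shifted chromosomes held more of the moderate differences than of the large ones. Chromosomes 9 and 15 together held 847 of the kept genes (9.4%), 98 of the 416 genes 1.5-fold apart (23.6%) and 14 of the 114 genes 2-fold apart (12.3%). On chromosome 9, 53 genes passed 1.5-fold toward clone 3 and 2 toward clone 1, and on chromosome 15 it was 1 and 42. With each difference centred on the median of its chromosome, 110 genes passed 2-fold and 320 passed 1.5-fold. Members of the lists on these chromosomes carry the shift too: Ccnb2, a mitotic cyclin gene on chromosome 9, was 51.5 and 75.6 FPKM, and its difference was 0.55 as measured and 0.23 after centring.

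Along the chromosomes the shift was broad. Windows of 10 Mb with at least 15 kept genes were counted. On chromosomes 6, 9, 11, 15 and 18, 37 of 47 had a median beyond 0.15 in either direction, against 1 of 157 on the others. These chromosomes were picked by their medians in the same data, so the contrast with the others follows from that choice. The count of 37 of 47 describes only how widely the shift spread along them. On chromosome 9 the first 30 Mb had a median of 0.071 over 86 genes. From 40 Mb onward it was 0.353 over 382 genes, of which 96.1% were higher in clone 3. On chromosome 11 the first 30 Mb had a median of 0.004 over 106 genes and the rest -0.197 over 697 genes. Chromosome 15 was shifted over its length, at -0.36 over 66 genes up to 50 Mb and -0.334 over 291 genes beyond. Chromosome 18 was at -0.19 up to 50 Mb and -0.191 beyond. These bounds were set after the windows were seen.

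**Figure D4:**
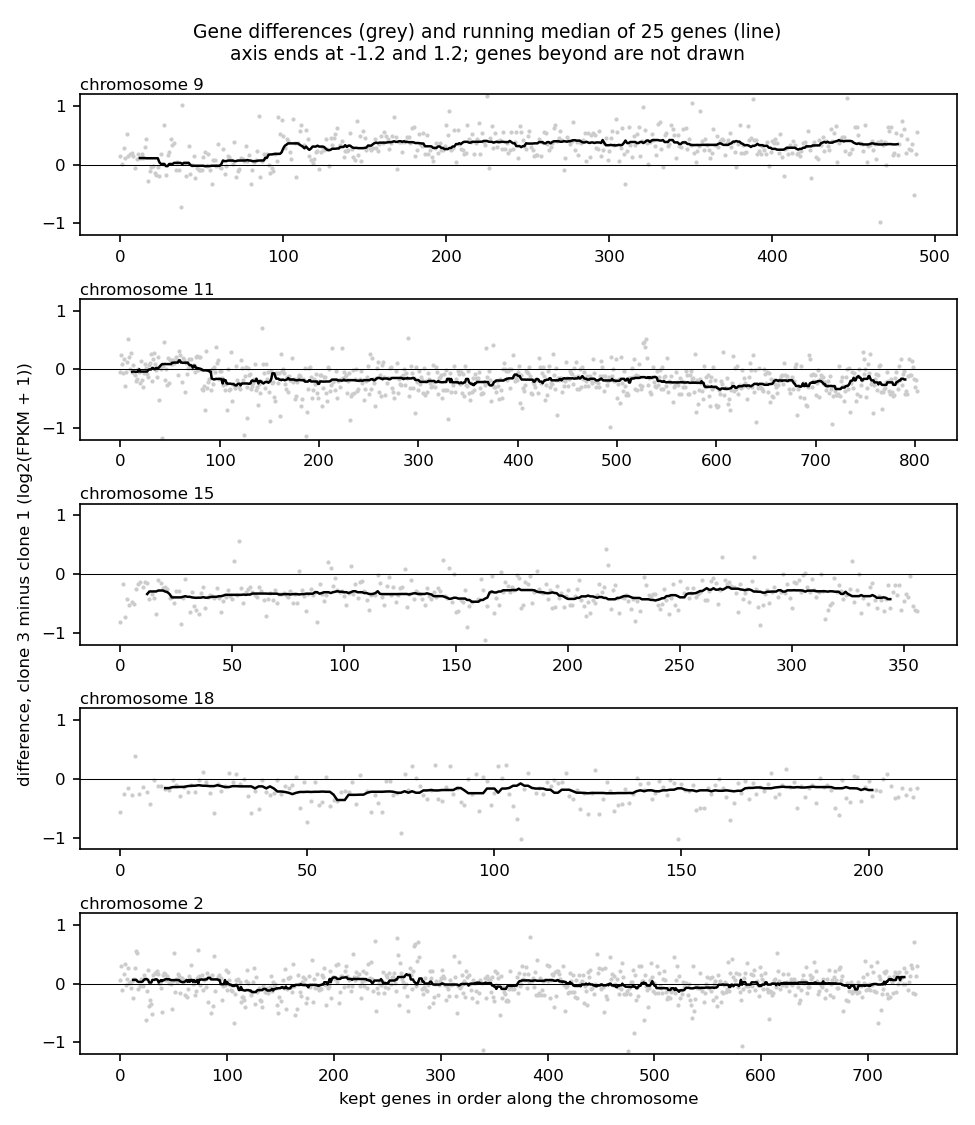
Difference of each kept gene (grey) and running median of 25 genes (line) in gene order along chromosomes 9, 11, 15, 18 and, for comparison, 2; the y axis is clone 3 minus clone 1 in log2(FPKM + 1), and genes beyond its ends are not drawn. The line leaves 0 after the first part of chromosomes 9 and 11, stays below 0 along 15 and 18 and near 0 along 2.

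The other libraries were then set beside each clone, each difference centred on the median of kept genes for that pair. The pairs share libraries, so the values are given side by side. From 40 Mb onward on chromosome 9, clone 1 was at -0.354 against pOKSM, -0.332 against pBKSM, -0.373 against the DTA line and -0.389 against cNSC. Clone 3 was at 0.013, 0.044, 0.002 and -0.018 in the same order. In this region clone 1 was thus the library apart from the other neural ones. On chromosome 11 beyond 30 Mb, clone 1 was at 0.173 against pOKSM and 0.334, 0.336 and 0.37 against pBKSM, the DTA line and cNSC, while clone 3 was at -0.032, 0.14, 0.133 and 0.157. On chromosome 15 the clones lay on opposite sides of the other neural libraries. Clone 1 was at 0.223 against pOKSM and 0.098 against pBKSM, and clone 3 at -0.108 and -0.251. Against MEF both clones were lower on chromosome 15, clone 1 at -0.401 and clone 3 at -0.783.

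**Figure D5:**
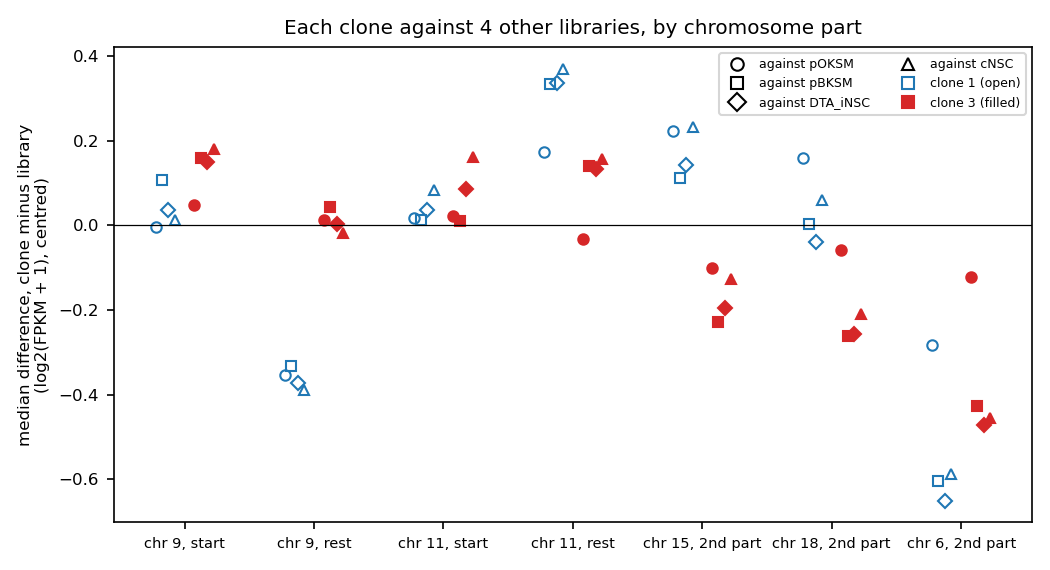
Median difference of clone 1 (blue, open) and clone 3 (red, filled) against pOKSM, pBKSM, the DTA line and cNSC (marker shapes) for parts of 5 chromosomes, in log2(FPKM + 1), centred for each pair. Start and rest on chromosome 9 are 0 to 30 Mb and 40 Mb onward, start and rest on 11 are split at 30 Mb, and the 2nd part begins at 50 Mb on 15 and 18 and at 75 Mb on 6; on the rest of 9 the clone 1 points lie between -0.389 and -0.332 and the clone 3 points near 0.

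Other chromosomes showed a shift that both clones shared. Chromosome 6 was at -0.523 in clone 1 and -0.36 in clone 3 against pBKSM. Chromosome X was at -0.871 in clone 1 and -0.797 in clone 3 against pBKSM, and at -0.268 and -0.203 against pOKSM, while the clones differed there by 0.03. DNA copy number was not measured here, and its part in these shifts was not tested.

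Y-linked genes were lower in clone 3. Ddx3y, an RNA helicase gene, was 28.3 FPKM in clone 1 and 16.2 in clone 3, Uty, a histone demethylase family gene, was 5.602 and 3.09, and Kdm5d, a histone demethylase gene, was 8.73 and 5.54. Eif2s3y, a translation initiation factor gene, was listed at 0 in both clones and in pOKSM, but was 31.2 FPKM in pBKSM and 48.2 in cNSC. Xist, the RNA that silences an X chromosome, was 0.0111 and 0.0125 FPKM, under the floor set for a 2 kb transcript. All 3 kept members of the X inactivation and Y-linked list were thus higher in clone 1, with a median of -0.69.

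Runs of at least 3 neighbouring kept genes 1.5-fold apart in one direction were few. On chromosome 9, Tgfbr2, Rbms3 (an RNA-binding protein gene, 5.96 and 9.86 FPKM) and Azi2 (an adaptor of innate immune signalling, 12.03 and 19.2) were higher in clone 3. On chromosome 11, Tubg1 (gamma tubulin, 81.9 and 53.3 FPKM), Plekhh3 (10.99 and 6.74) and Ramp2 (a receptor activity-modifying protein gene, 19.1 and 12.01) were higher in clone 1. So were Btbd17 (12.4 and 3.67), Slc9a3r1 (a scaffold protein gene, 40.1 and 26.1) and Nat9 (15.6 and 9.70) on the same chromosome. On chromosome 1, Ackr1 (6.53 and 2.84), Cadm3 (7.86 and 3.29) and Rgs7 (5.98 and 3.32) were higher in clone 1. Ackr1 and Cadm3 overlap, so their fragments may not be separable. Of the 4 runs, 3 lay on chromosomes with a shift of their own.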

How the data were processed

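Libraries were made from RNA pooled over 2 to 3 biological replicates, per the labels' protocols. The deposited table holds FPKM per gene symbol made by the authors. STAR 2.5.2b, Cufflinks 2.2.1, Cuffnorm, R 3.3.2 and build mm10 are named in the submitters' processing notes, and the role of each is not given in the sources used here. No counts were used here. FPKM is a relative measure, so total RNA per cell is not seen.

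Differences were taken on log2(FPKM + 1) with Python 3.11.15, pandas 2.3.3 and numpy 2.4.6, for genes with 5 FPKM or more in the higher clone. Depth was estimated from steps between low FPKM values: 73.4% of 293 values in clone 1 and 69.9% of 272 in clone 3 lay within 0.1 of a whole number of fragments. Symbols were matched to RefSeq genes on GRCm38 (8613 by symbol, 388 by a synonym, 23 unmatched), which also gave the chromosome positions. Transcript sequences were taken from GENCODE vM21.

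The comparison, the 33 gene lists and the naming rule were chosen with earlier results of these data known. The rule named the factor genes, the 12 largest differences each way (skipping Gm, Rik, small RNA and ribosomal protein names), up to 4 kept members of each list by size, Xist and Y-linked genes, genes beside the 2-fold bound and runs of neighbours. Genes outside it (defining markers, genes under 5 FPKM, and others used as examples) were named after their values were seen. The shifted chromosomes, their bounds and the centring on chromosomes were also chosen after seeing the data. The scripts were checked on simulated tables.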

Additional observations from a re-analysis of the deposited data

How the results depend on the processing

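No paired analysis was possible because each clone has 1 library, which also leaves no library that could be left out. Counts depended on the minimum level. The 114 genes 2-fold apart became 197 with a minimum of 1 FPKM, 197 with none and 67 with 10 FPKM. The 416 genes 1.5-fold apart became 719, 778 and 273 in the same order. More genes were higher in clone 1 under each of these settings. The 14 other alternatives for the counts stayed within 1.5 times. Of the medians of the shifted chromosomes, none changed sign. With only genes of 20 FPKM or more they were 0.118 on chromosome 6, -0.202 on 11, -0.377 on 15 and -0.23 on 18. With quantile normalization they were 0.325 on 9, -0.16 on 11 and -0.323 on 15. With a pseudocount of 0.1 they were 0.328 on 9 and -0.355 on 15. Centred on genes of like GC content they were -0.164 on 11 and -0.322 on 15. Of 145 list medians under alternatives, 3 took another sign, for 2 lists near 0: neural stem cell (0.016 with quantile normalization, 0.042 centred on chromosomes) and maternally expressed imprinted genes (0.02 with a minimum of 1 FPKM). The planned check of promoter CpG content is void, since fewer than 80% of the genes 2-fold apart had a promoter entry. For a 2 kb transcript, depth limits genes under about 0.119 FPKM, where a low value and absence cannot be told apart.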

Other observations

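A gene and its near copy differed between the clones in opposite directions. Ass1, encoding argininosuccinate synthase of the urea cycle (chromosome 2, 31470270 to 31520670), was 31.6 FPKM in clone 1 and 12.95 in clone 3, a difference of -1.23. Gm5424 (chromosome 10, 62071022 to 62072571) was 1.11 FPKM in clone 1 and 6.99 in clone 3, a difference of 1.92. Of the 50-base words of Gm5424, 76.5% also occur in Ass1 (911 of 1191), so fragments of the 2 genes could be assigned to either and both values are uncertain. In the other libraries Gm5424 was 47.8 FPKM in MEF and 9.18 in pOKSM, beside 25.5 and 11.97 for Ass1. The genes were named after their values were seen.

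Tubb2a, a beta tubulin gene, was 132 FPKM in clone 1 and 61.7 in clone 3, against 103 in pOKSM, 139 in pBKSM, 240 in cNSC and 110.1 in MEF. Clone 3 was the low library for Tubb2a, and it was the high one among the clones for the tubulin genes Tuba4a and Tubb3. Tubb2a too was named after its values were seen.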
